A study of Mus musculus with 12 samples.

Results

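The mitochondrially encoded genes were taken as every gene of the deposited count table whose symbol starts with mt-, at 1 entry per Ensembl gene. There were 37 of them among the 40594 genes of the table: 13 mRNA genes, 2 rRNA genes and 22 tRNA genes. All 37 gene identifiers were the mitochondrial ones of GENCODE M21.

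Mitochondria carry a small circular genome of their own, which is read by a dedicated RNA polymerase from both strands into long transcripts that span many genes. The tRNAs that lie between the mRNAs and rRNAs are cut out, and the mature RNAs that remain are then stabilised and mostly polyadenylated. The mRNAs among them are translated on mitochondrial ribosomes. The mRNAs encode core subunits of respiratory complexes I, III and IV and of the ATP synthase, whose other subunits are encoded in the nucleus. Heart muscle is rich in mitochondria, and their transcripts form a large part of its RNA.

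The libraries came from ventricles of adult mouse hearts, 3 for each of 4 groups: control left ventricle (LV), control right ventricle (RV), Wnt LOF LV and Wnt LOF RV. Wnt is a signalling pathway between cells and LOF stands for loss of function. The labels name neither the gene targeted nor an allele, Cre driver, strain or sex, and total RNA was taken from the whole ventricle, so all its cell types are mixed. The title sets the question of how Wnt-dependent programmes and arrhythmia differ between the ventricles. No label ties the libraries to separate animals, and p-values here cover the spread between libraries only.

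Total counts ran from 13.3 to 19.2 (in units of 1e+06) per library. The 12 cardiomyocyte markers summed to 91540 to 100900 CPM (CPM, counts scaled to a library total of 1e+06) and none was at 0, which fits the labelled tissue. Markers of brown adipocytes summed to at most 25.5 CPM and those of skeletal muscle to at most 3.24 CPM, and Ucp1, the defining brown adipocyte gene, did not exceed 0.125 CPM. Some libraries stood apart or went against their labels. Wif1, a secreted Wnt inhibitor, was at 2.66 to 3.16 CPM in control LV and at 12.03 to 17.7 CPM in control RV, but at 14.03 CPM in the library labelled WntLOF LV 1 and at 2.58 CPM in the library labelled WntLOF RV 1. Kcnd2 was at 31.11 to 44.43 CPM in control LV and at 79.95 to 96.31 CPM in control RV. In WntLOF LV 1 it was at 94.65 CPM, within the control RV range. In WntLOF RV 1 it was at 54.63 CPM, between the control ranges, as in WntLOF RV 3 (57.95 CPM). The doubt about WntLOF RV 1 thus rests on Wif1. The gene deviations of the library labelled control LV 2 from its group mean correlated at 0.321 with those of WntLOF LV 1, above its correlation of 0.290 with control RV 2 (15494 genes). Ddx3y, a Y-linked gene, was at 99.5 to 135 CPM in the library numbered 3 of each group and at no more than 0.782 CPM in the other 8. Counts of called genes, and some of the fold changes, medians and pair counts, that touch WntLOF LV 1, WntLOF RV 1 or control LV 2 are also given below without them. Where no such value is given, these libraries are included. The fold changes of the nuclear gene lists and of the cell type markers include them throughout.

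Counts were not spread over the whole mitochondrial genome. A continuous stretch between mt-Co1 and mt-Nd4 was almost without counts: it holds 6 mRNA and 5 tRNA genes, and 5 of these mRNAs and 4 of these tRNAs had 0 counts in all 12 libraries. The mRNAs at 0 were mt-Co2, a subunit of complex IV, mt-Atp8 and mt-Atp6, subunits of the ATP synthase, and mt-Nd3 and mt-Nd4l, subunits of complex I. The sixth, mt-Co3 (complex IV), had 1 count in control LV 1 and none elsewhere. A count of 0 allows up to 3 counts, or at most 0.226 CPM in any library, for counting error only. The 7 mRNAs outside the stretch all had counts, up to 918362 in a library for mt-Co1.

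The mRNA genes of this stretch other than mt-Atp8 have near-identical copies in the nuclear genome, on chromosome 1, annotated as a row of predicted genes. Sequences were taken from GENCODE M21, whose coordinates are of build GRCm38; the authors' build is not given in the sources used here. The first 60 bases of mt-Co2 (chrM:7013-7072, plus strand) and of the predicted gene Gm28661 (chr1:24615506-24615565, minus strand) are shown because they are the same, as are all 681 aligned bases of this pair. The first 60 bases of mt-Nd3 (chrM:9459-9518, plus strand) and of Gm28438 (chr1:24613060-24613119, minus strand) are shown because they hold the only difference in 345 aligned bases, T3C, counted from the first base of mt-Nd3 and printed as a capital.
mt-Co2: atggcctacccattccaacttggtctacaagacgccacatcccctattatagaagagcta
Gm28661: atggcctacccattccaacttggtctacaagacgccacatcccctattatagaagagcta
mt-Nd3: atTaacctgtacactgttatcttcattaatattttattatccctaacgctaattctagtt
Gm28438: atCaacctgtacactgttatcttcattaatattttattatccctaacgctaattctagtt

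The copy begins inside mt-Co1, the catalytic subunit of complex IV. Gm29216 aligned to bases 1054 to 1545 of mt-Co1, and its 6 differences (T1056A, C1057T, A1059G, A1060G, C1062A and A1066T, counted from the first base of mt-Co1) all lie in its first 13 bases. The window shows this edge, with the differing bases in capitals (chrM:6381-6440, plus strand, and chr1:24616138-24616197, minus strand).
mt-Co1: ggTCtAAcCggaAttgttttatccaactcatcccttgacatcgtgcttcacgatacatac
Gm29216: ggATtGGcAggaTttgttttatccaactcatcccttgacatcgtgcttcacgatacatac

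Of the 6 mRNAs with at most 1 count, 5 shared 98.0% to 100% of their 50-base words with another annotated transcript, out of 141730 searched. The 7 mRNAs with counts shared 0% to 62.2% of theirs. Among these, mt-Nd4 shared 62.2%, with its first 876 bases identical to Gm28439, and mt-Co1 shared 51.1%. Of the 765 shared words of mt-Co1, 430 were shared with Gm29216 and the rest only with other transcripts. The exception among the uncounted mRNAs was mt-Atp8, which shared 0% with annotated transcripts. With words of 36 bases it shared 4.73%. Its last 43 bases overlap the start of mt-Atp6 and its larger part lies in the 230 bases between mt-Co2 and mt-Atp6; the chromosome 1 copies of those genes, Gm28661 and Gm10925, lie 233 bases apart, but the sequence between them is in no transcript searched. The tRNAs in the stretch shared no 50-base word with another transcript. These values stand side by side here: no source used here gives the read length or the treatment of reads that match more than 1 place, and whether such reads were set aside was not tested.

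**Figure D1:**
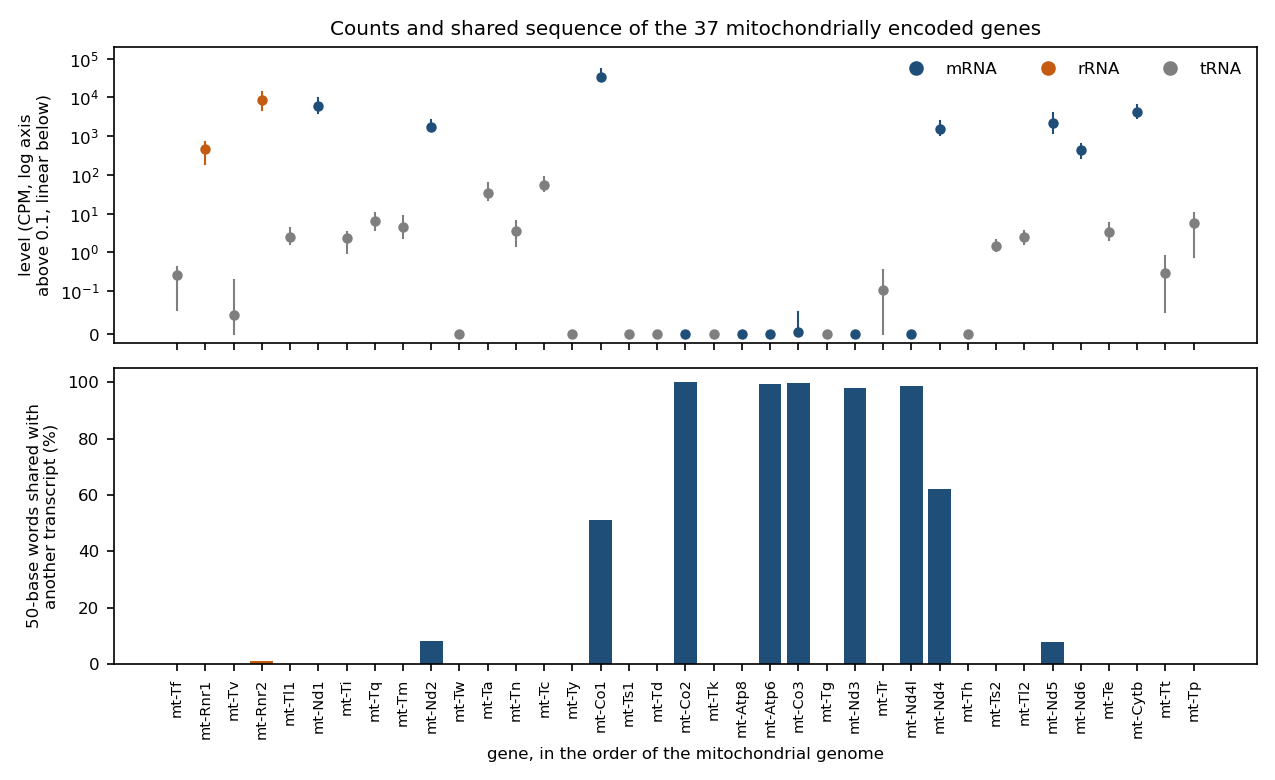
The 37 genes in the order of the mitochondrial genome, with the mean level (points) and the range over 12 libraries (lines) in CPM above, on a log axis that is linear below 0.1, and the percent of 50-base words shared with another annotated transcript below. The mRNAs from mt-Co2 to mt-Nd4l have at most 1 count, and 5 of these 6 share 98.0% to 100% of their words.

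The nuclear copies themselves were hardly counted, with 1 exception. Gm28438, the copy of mt-Nd3, had 146 to 257 counts in every library (8.79 to 13.4 CPM), whereas mt-Nd3 had none. Gm29216 had at most 8 counts in a library, Gm28661 at most 4, Gm10925 and Gm28437 (the copy of mt-Co3) at most 3, Gm10222 (the copy of mt-Nd4l) at most 1 and Gm28439 had 0. From which of the 2 genomes the reads given to Gm28438 came was not tested. Values for mt-Co1 and mt-Nd4 are uncertain for the same reason, since only part of each sequence is unique.

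Among the tRNAs, 7 of 22 had 0 counts in all libraries (mt-Tw, mt-Ty, mt-Ts1, mt-Td, mt-Tk, mt-Tg and mt-Th), and mt-Tf, mt-Tv and mt-Tr had at most 7, 3 and 6 counts. The other 12 reached 10 or more counts in a library. The 8 tRNA genes on the minus strand had a summed mean of 106 CPM and the 14 on the plus strand 13.9 CPM. The 6 highest were mt-Tc (53.7 CPM, mean of 12 libraries), mt-Ta (33.3), mt-Tq (6.50), mt-Tp (5.81), mt-Tm (4.48) and mt-Tn (3.65), which carry cysteine, alanine, glutamine, proline, methionine and asparagine, and 5 of these 6 are on the minus strand. The strand setting of the counting is not given, so reads from a minus-strand tRNA and from a long plus-strand RNA that runs across it cannot be told apart. The same holds for mt-Nd6, the only mRNA of the minus strand.

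Counts per kilobase set the order of the 9 longer genes that had counts, here as the mean CPM per kb over 12 libraries. mt-Co1 was highest at 22070, above every library of mt-Nd1 (6115), a subunit of complex I. mt-Rnr2, the large rRNA, followed at 5400 and mt-Cytb, the subunit of complex III, at 3721. The ranges of mt-Nd1 and mt-Rnr2 overlapped, as did those of mt-Rnr2 and mt-Cytb. The complex I subunits mt-Nd2 (1687), mt-Nd5 (1229), mt-Nd4 (1096) and mt-Nd6 (862) came next, each overlapping its neighbour, and mt-Rnr1, the small rRNA, was lowest at 480. On this scale mt-Nd4 exceeded mt-Nd5 in 7 of 12 libraries. Only part of mt-Co1 and mt-Nd4 is unique, and per 1000 unshared words of 50 bases, in place of the full length, mt-Co1 was at 46650, mt-Nd4 at 3009, mt-Nd2 at 1929, mt-Nd5 at 1367 and mt-Nd6 at 952.1. On that scale mt-Nd4 lay above mt-Nd2 and mt-Nd5 in 12 of 12 libraries, so the place of mt-Nd4 in the order depends on the scale, and which scale suits these counts was not tested.

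Mitochondrial genes together took 4.62% to 8.29% of a library's counts, of which rRNA made up 5.87% to 24.7% and mRNA nearly all the rest. The mRNA share was 4.04%, 4.35% and 6.50% in control LV 1, 2 and 3, and 4.54%, 4.41% and 5.54% in control RV. In Wnt LOF it was 3.84%, 4.70% and 4.53% in the LV and 4.19%, 7.79% and 5.75% in the RV. The groups overlapped in all 4 comparisons, and the highest value by far was that of WntLOF RV 2. The group means were 4.96% ± 1.34 (SD, n = 3) in control LV, 4.83% ± 0.618 in control RV, 4.36% ± 0.455 in Wnt LOF LV and 5.91% ± 1.81 in Wnt LOF RV. The largest difference, RV above LV in Wnt LOF by 1.55 percentage points, had p = 0.3 (exact two-sided permutation test, 0.947 after Benjamini-Hochberg adjustment over 20 such tests), where 3 against 3 libraries cannot go below 0.1. It was 0.608 points without WntLOF RV 2 and 2.15 points without WntLOF LV 1 and RV 1. In whole ventricle, fewer mitochondria-rich cells and less mitochondrial RNA per cell cannot be told apart.

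The rRNA and tRNA shares did not separate the groups either. The rRNA share had means of 0.875% ± 0.163 (SD, n = 3) in control LV, 0.943% ± 0.439 in control RV, 0.930% ± 0.202 in Wnt LOF LV and 0.852% ± 0.404 in Wnt LOF RV. The tRNA share was 0.0109% ± 0.00229, 0.0128% ± 0.00235, 0.00988% ± 0.00109 and 0.0145% ± 0.00478 in the same order. Over the 20 exact permutation tests, which also covered rRNA as a share of mitochondrial counts and mt-Nd6 as a share of mitochondrial mRNA, p ran from 0.2 to 1. The highest tRNA share, 0.0187%, was that of WntLOF RV 3, which also had the highest level of Rn7sk, a short RNA without a poly(A) tail (2374 CPM against 589 to 1648 in the other 11). The part of RNA selection in the tRNA values was not tested.

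**Figure D2:**
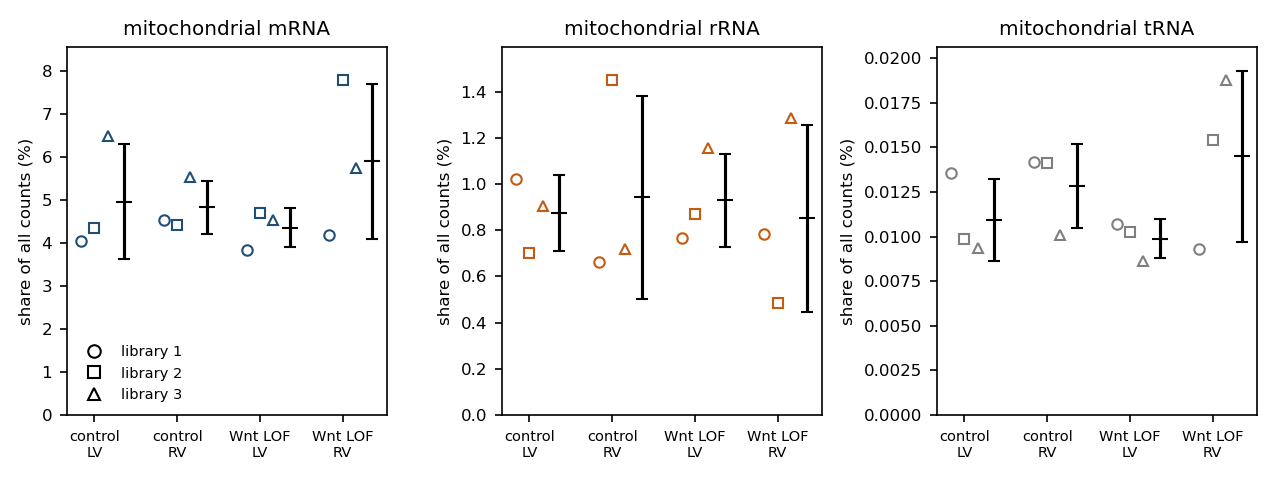
Share of all counts (percent) taken by mitochondrial mRNA, rRNA and tRNA genes in each library, by group, with library number as the marker and the group mean ± SD (n = 3) beside it. Wnt LOF RV spans 4.19% to 7.79% for mRNA, and every group overlaps the others.

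Within the mitochondrial pool, mRNA and rRNA went apart in single libraries. WntLOF RV 2 had the highest level of 6 of the 7 mRNAs with counts and the lowest level of both rRNAs. Its rRNA to mRNA ratio was 0.0625, and the other 11 libraries ran from 0.130 in control RV 3 to 0.328 in control RV 2. Its rRNA made up 5.87% of mitochondrial counts, against 24.7% in control RV 2. The level of Malat1, a nuclear RNA, was lowest in WntLOF RV 2 (8278 CPM) and next lowest in WntLOF RV 3 (9009 CPM), and up to 14570 CPM elsewhere. The part of RNA quality or of library making in these values was not tested.

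The mRNA levels are given per library, in CPM and in the order of library 1, 2 and 3. mt-Co1 was at 28983, 31369 and 42671 in control LV, 32765, 29748 and 36697 in control RV, 26602, 29178 and 30338 in Wnt LOF LV and 29678, 53312 and 37843 in Wnt LOF RV. The Wnt LOF ventricles thus overlapped only in that WntLOF RV 1 lay below WntLOF LV 3. Leaving out either library would part them, and only WntLOF RV 1 had a Wif1 level that went against its label.

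mt-Nd4, a membrane subunit of complex I, was at 1260, 1159 and 1580 in control LV and 1552, 1703 and 1891 in control RV. In Wnt LOF it was at 1075, 1362 and 1043 in the LV and 1213, 2486 and 1802 in the RV. In both genotypes the lowest RV library lay below the highest LV library, so the ventricles overlapped.

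mt-Nd1 was at 3960, 4663 and 7914 in control LV, 4331, 5142 and 6923 in control RV, 4149, 5465 and 5708 in Wnt LOF LV and 4582, 9710 and 7683 in Wnt LOF RV. mt-Nd2 was at 1407, 1373 and 2400, then 1397, 1643 and 2094, then 1324, 1880 and 1328, and 1475, 2667 and 2032, in the same order of groups. mt-Cytb was at 2939, 3028 and 5935, then 3525, 4019 and 4838, then 3769, 5079 and 3701, and 3171, 6470 and 4612. Control LV 3 and WntLOF RV 2 were high for all 3 of these genes, within groups whose other libraries were lower.

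mt-Nd5, another membrane subunit of complex I, varied most among the mRNAs, 3.23-fold between the highest and the lowest library. It was at 1504, 1547 and 3948 in control LV, 1501, 1521 and 2450 in control RV, 1224, 3479 and 2761 in Wnt LOF LV and 1399, 2621 and 2950 in Wnt LOF RV. The values fell into 2 ranges with none between 1547 and 2450: the higher range held control 3, WntLOF 2 and WntLOF 3, in both ventricles. mt-Nd6 was at 371, 353 and 580, then 361, 350 and 532, then 279, 566 and 452, and 364, 623 and 538, in the order of groups used above. Its 6 highest libraries were the same ones.

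The same 6 libraries were also the highest for mt-Nd1 and for mt-Te, the glutamate tRNA gene beside mt-Nd6. That made 4 of the 20 genes tested, mt-Nd5 itself included, where 0.6% of all 15494 genes had these 6 libraries highest. Among the 9 libraries other than WntLOF LV 1, WntLOF RV 1 and control LV 2, the same 6 were highest for these 4 genes and mt-Tl2, or 5 of 20, against 2.93% of all genes. The pattern was seen in the values and then counted, so it is a description. It followed the library number within a genotype, across both ventricles. The libraries numbered 3 were also those with Ddx3y, but both WntLOF 2 libraries lacked it (at most 0.348 CPM), and what the 6 libraries share was not tested.

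The rRNAs showed another order. mt-Rnr2 was at 9807, 6621 and 8470 in control LV, 6350, 13875 and 6801 in control RV, 7229, 8113 and 10863 in Wnt LOF LV and 7387, 4683 and 12322 in Wnt LOF RV. mt-Rnr1 was at 412, 378 and 569, then 266, 614 and 391, then 426, 588 and 687, and 435, 187 and 545. Both rRNAs were therefore spread most widely within the RV groups, 2.96-fold for mt-Rnr2 and 3.67-fold for mt-Rnr1 over all libraries.

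**Figure D3:**
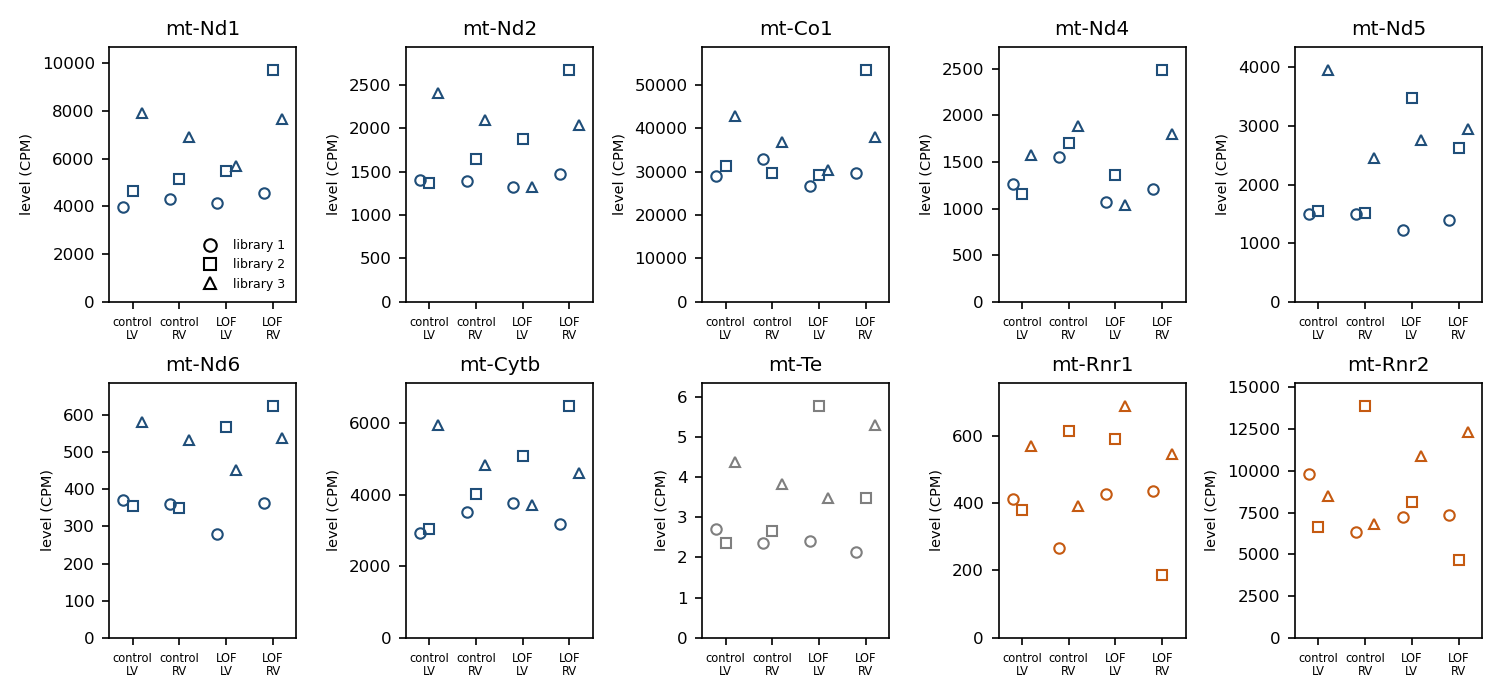
Level in CPM (linear axes from 0) of the 7 mRNAs and 2 rRNAs with counts and of mt-Te in each library, by group (LOF, Wnt LOF), with library number as the marker. For mt-Nd5 the libraries of control 3, WntLOF 2 and WntLOF 3 lie at 2450 or above and the other 6 at 1547 or below.

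Differences were tested for 20 of the 37 genes (7 mRNAs, both rRNAs and 11 tRNAs) that passed the filter on low counts, in a fit of 15494 genes. The members come from the same long transcripts and are not replicates of each other. Counts of members set beside shares of all genes are therefore descriptions, since 1 library can move many members together. No mitochondrial gene was called by edgeR's quasi-likelihood test at an adjusted p under 0.05 in any of 5 comparisons, and neither was any other gene (0% called). DESeq2 also called 0. In the authors' deposited tables, which hold 18 of these genes and neither rRNA, the smallest adjusted p of a mitochondrial gene was 0.841 for the LV and 0.918 for the RV. In libraries simulated at these depths, with 200 of 15494 genes changed 2-fold, the edgeR test recovered 78% to 83% of them in the 4 pairwise comparisons. The simulated counts left out the extra spread that the quasi-likelihood fit gives each gene. The percentages therefore do not show how often a 2-fold change of a mitochondrial gene would be found. For mt-Nd5 the SE of the log2 fold change between genotypes in the LV was 0.52.

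Wnt LOF against control was compared first in the LV. The 7 mRNAs had a median log2 fold change of -0.14, with 2 of 7 above 0 against 49.1% of all genes, whose median was -0.0038. The highest was mt-Nd5 at 0.06 (SE 0.52) and the lowest mt-Co1 at -0.29 (SE 0.21). mt-Nd6 had -0.04, mt-Rnr1 0.29 and mt-Rnr2 0.04, each smaller than its SE. No mitochondrial gene had an unadjusted p under 0.05 by edgeR, against 2.85% of all genes, and DESeq2 gave 0 as well. The median was 0.22 without control LV 3, the library with the highest mRNA share of its group, and -0.0074 without WntLOF LV 1 and RV 1.

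The 2 groups did not overlap for 2 tRNA genes, mt-Tl2 and mt-Ts2, neighbours between mt-Nd4 and mt-Nd5, and both were higher in Wnt LOF. This is 2 of 20, where 3.95% of all genes had ranges apart and higher. mt-Tl2, a leucine tRNA, was at 2.03, 2.56 and 2.41 CPM in control LV and 3.14, 3.62 and 3.08 CPM in Wnt LOF LV. mt-Ts2, a serine tRNA, was at 1.46, 1.36 and 1.13 CPM and 1.85, 2.14 and 1.54 CPM. Their log2 fold changes were 0.45 (SE 0.21) and 0.43 (SE 0.24), both with an adjusted p of 0.999 by edgeR, and at most 54 and 32 counts lay behind a value. Without WntLOF LV 1 and RV 1 they were 0.49 and 0.44, and without control LV 2 they were 0.54 and 0.47.

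In the RV, all 7 mRNAs lay above 0 in Wnt LOF against control, beside 50.3% of all genes, with a median of 0.30. The highest was mt-Nd1 at 0.43 (SE 0.33) and the lowest mt-Nd4 at 0.11 (SE 0.23). mt-Nd6 had 0.30, mt-Rnr1 -0.12 and mt-Rnr2 -0.13, all within their SE. No mitochondrial gene had an unadjusted p under 0.05 by edgeR or DESeq2, against 2.7% of all genes by edgeR, and ranges were apart for none of the 20, against 7.56%. The 7 mRNAs are not independent, and WntLOF RV 2 was the highest library for 6 of them. The median rested on WntLOF RV 2: it was 0.03 without that library, and 0.49 without WntLOF LV 1 and RV 1.

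RV against LV in the control hearts gave a median of 0.01 for the mRNAs, with 4 of 7 above 0, beside 51% of all genes. mt-Nd4 was highest at 0.38 (SE 0.23, adjusted p 0.922 by edgeR) and mt-Nd5 lowest at -0.33 (SE 0.52). mt-Nd6 had -0.05, mt-Rnr1 -0.08 and mt-Rnr2 0.13, and no mitochondrial gene had an unadjusted p under 0.05 by edgeR or DESeq2, against 4.89% of all genes by edgeR. Ranges were apart for none of the 20 genes, against 12.6% of all genes. The median was -0.10 without control LV 2 and 0.33 without control LV 3.

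RV against LV in the Wnt LOF hearts held the largest differences. The median of the mRNAs was 0.51, with 6 of 7 above 0 beside 49.8% of all genes, and the members spread from mt-Nd4 at 0.73 (SE 0.23) to mt-Nd5 at -0.04 (SE 0.52). mt-Co1 had 0.55 (SE 0.21), mt-Nd6 0.30 (SE 0.32), mt-Rnr1 -0.49 (SE 0.40) and mt-Rnr2 -0.05 (SE 0.38). The rRNAs thus did not lie above 0 with the mRNAs. By edgeR, 5 of the 20 genes had an unadjusted p under 0.05 (mt-Nd4, mt-Tc, mt-Co1, mt-Tn and mt-Tl2), against 4.81% of all genes, and DESeq2 also gave 5, but each had an adjusted p of 0.9996 by edgeR. The median was 0.27 without WntLOF RV 2 and 0.62 without WntLOF LV 1 and RV 1. Between these groups the nuclear-retained RNAs had a mean sum of 15290 CPM in the LV against 11290 CPM in the RV, with Malat1 at 13460 against 9674 CPM, and the short RNAs without a poly(A) tail had a mean sum of 1237 against 1981 CPM. Their part in the difference was not tested.

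Ranges were apart for 3 tRNA genes in this comparison. mt-Tc was at 43.7, 39.2 and 37.4 CPM in Wnt LOF LV and 45.3, 66.1 and 86.9 CPM in the RV, a log2 fold change of 0.79 (SE 0.26). mt-Tn was at 2.95, 2.55 and 2.45 CPM and 3.08, 5.17 and 6.35 CPM, a log2 fold change of 0.94 (SE 0.37). These 2 genes lie side by side on the minus strand. mt-Tl2 was lower, at 3.14, 3.62 and 3.08 CPM in the LV and 2.19, 2.03 and 2.30 CPM in the RV, a log2 fold change of -0.53 (SE 0.22). Without WntLOF LV 1 and RV 1 the values were 1.07 for mt-Tc, 1.27 for mt-Tn and -0.55 for mt-Tl2, and 0.90 for mt-Nd4. Of all genes, 3.36% had ranges apart with the RV higher and 3.7% with the RV lower.

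**Figure D4:**
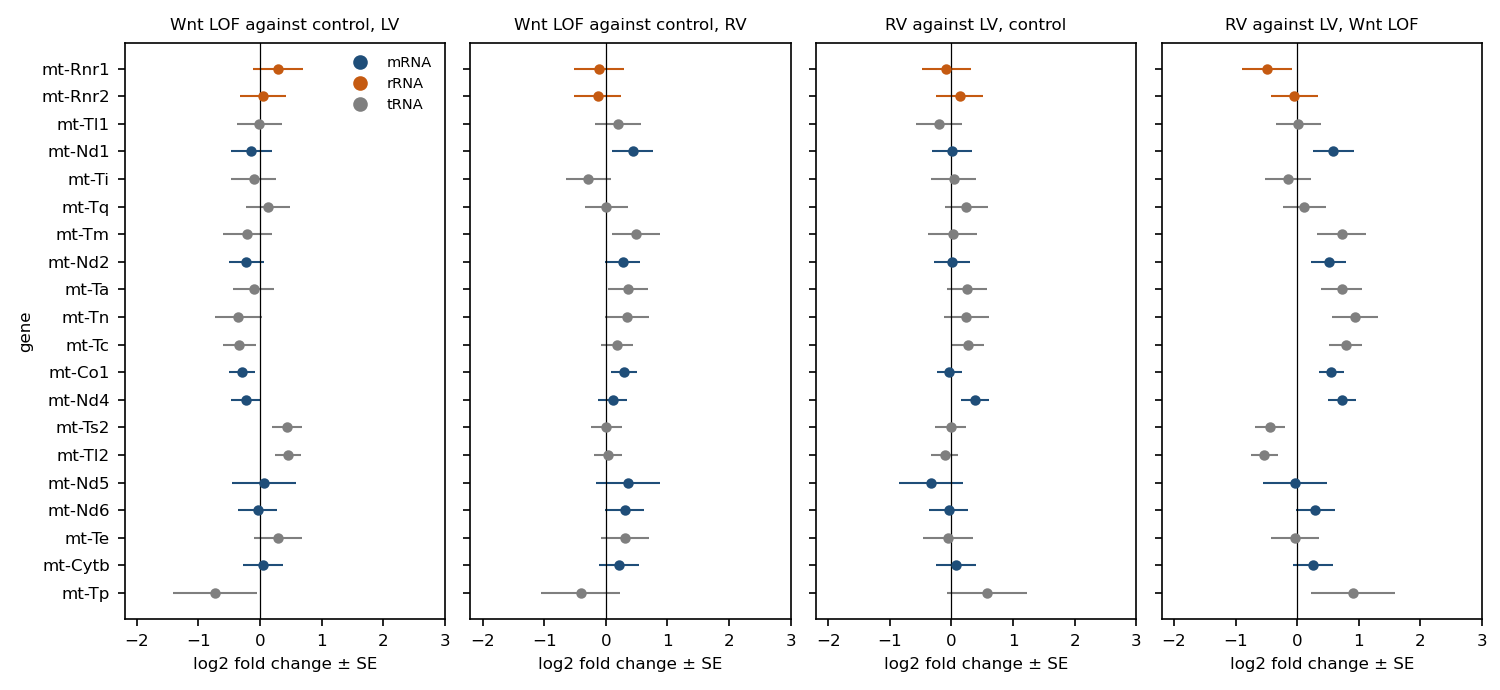
Fitted log2 fold change ± SE (edgeR, 12 libraries) of the 20 tested mitochondrial genes in 4 comparisons, in genome order and coloured by class. In RV against LV of Wnt LOF, mt-Nd4 stands at 0.73 and mt-Rnr1 at -0.49, and no gene was called in any panel.

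The difference between the genotypes in RV against LV was tested as an interaction. The mRNA median was 0.34, from mt-Cytb at 0.17 (SE 0.46) to mt-Co1 at 0.59 (SE 0.29). mt-Nd6 had 0.34, mt-Rnr1 -0.41 and mt-Rnr2 -0.18, all within their SE. The median was 0.52 without WntLOF LV 1 and RV 1 and again 0.52 without control LV 2, but 0.19 without WntLOF RV 2 and 0.18 without control LV 3. No mitochondrial gene had an unadjusted p under 0.05 by edgeR, against 2.01% of all genes, while DESeq2 gave 1. For the mRNA share itself, the RV minus LV differences of 0.501, 0.0634 and -0.960 points in control and 0.346, 3.09 and 1.21 points in Wnt LOF had p = 0.2 (exact permutation test), where 3 against 3 pairs cannot go below 0.1.

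Deviations from the group mean over all genes correlated at 0.290 to 0.517 between same-numbered left and right control libraries, and at 0.191 to 0.594 in Wnt LOF. In Wnt LOF, LV 1 with RV 2 had 0.201, above pair 1 (0.191) and pair 2 (0.197), so these pairs did not stand out. The libraries of pair 3, the highest in both genotypes, were those with Ddx3y. RV against LV was also fitted with the number as a block, and the results below rest on this uncertain pairing. In Wnt LOF, 9 of the 20 mitochondrial genes then had an unadjusted p under 0.05, against 8.21% of all genes, and 1 gene of the whole table (0.00645%), no mitochondrial one, was called. mt-Nd4 stood at 0.67 (log2, SE 0.13) with the smallest adjusted p of the members, 0.158 by edgeR. In control hearts mt-Nd4 alone had an unadjusted p under 0.05, at 0.39 (SE 0.13) with an adjusted p of 0.514 by edgeR, against 9.29% of all genes. In the interaction 4 members did, against 4.09% of all genes, and again 1 gene (0.00645%) outside the mitochondrial genome was called. The SE of mt-Nd5 went from 0.52 to 0.14 with the block, and its fold change stayed near 0 in Wnt LOF (0.02).

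Without WntLOF LV 1 and RV 1, a fit chosen after the data were seen, the block left 2 pairs in Wnt LOF and members were called there. RV against LV in Wnt LOF then called 7 of the 20 mitochondrial genes, all higher in the RV, against 1.89% of all genes. mt-Nd4 had a log2 fold change of 0.90 (SE 0.11) with the smallest adjusted p of the members, 0.0013 by edgeR, and mt-Tc had 1.06 (SE 0.13, adjusted p 0.0031 by edgeR). The others were the mRNAs mt-Nd1 (0.70), mt-Nd2 (0.63) and mt-Co1 (0.67) and the tRNA genes mt-Ta (1.04) and mt-Tm (1.08). An unadjusted p under 0.05 was reached by 11 members, against 15.8% of all genes. Without control LV 2 as well, 6 members were called against 1.14% of all genes, the same ones except mt-Co1, and 14 had an unadjusted p under 0.05 against 16.3%. No member was called in the interaction in either fit, where 9 had an unadjusted p under 0.05 in each, against 4.73% and 4.96% of all genes. In control hearts, in the fit without all 3 libraries, mt-Nd4 alone had an unadjusted p under 0.05, at 0.31 (SE 0.10, adjusted p 0.372 by edgeR), against 9.53% of all genes. Among the fits run, members were called only in these 2, which combine the block with leaving out the pair whose Wif1 levels went against its labels.

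Pair by pair, mt-Nd4 was higher in the RV library in 6 of 6 pairs, by 0.32, 0.54 and 0.31 (log2) in control 1, 2 and 3 and by 0.22, 0.95 and 0.85 in WntLOF 1, 2 and 3. mt-Tc was the only other member of which this held, and 3.39% of all genes had the RV higher in all 6. Without the pair WntLOF 1 it held for these same 2 members in 5 of 5 pairs, against 9.16% of all genes, and without control 2 as well in 4 of 4, against 13.1%. These counts were made after the values were seen. As a share of mitochondrial mRNA counts, which no library scaling touches, mt-Nd4 took 3.12%, 2.66% and 2.43% in control LV and 3.42%, 3.86% and 3.41% in control RV. In Wnt LOF it took 2.80%, 2.90% and 2.30% in the LV and 2.90%, 3.19% and 3.14% in the RV. The control ventricles did not overlap in this share. The Wnt LOF ventricles did, with WntLOF RV 1 at 2.895% just below WntLOF LV 2 at 2.897%. By level, ranges were apart in control for 12.6% of all genes, mt-Nd4 not among them, and no such background was computed for shares. No other counted mRNA had a higher share in the RV in all 6 pairs.

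Other ratios inside the pool also differed by ventricle within pairs. The ratio of mt-Rnr2 to mt-Rnr1 was higher in the RV in 6 of 6 pairs, although by less than 0.1 in 2 of them: 23.8, 17.5 and 14.9 in control LV against 23.9, 22.6 and 17.4 in control RV, and 17.0, 13.8 and 15.8 in Wnt LOF LV against 17.0, 25.0 and 22.6 in Wnt LOF RV. The ratio of mt-Nd5 to mt-Cytb was lower in the RV in 5 of 6 pairs. Without the pair WntLOF 1 these were 5 of 5 pairs for both ratios, and without control 2 as well 4 of 4. mt-Tp, the proline tRNA gene at the end of the gene order, was at 0.742, 1.81 and 2.21 CPM in WntLOF LV 3, control LV 3 and WntLOF LV 2, and at 4.93 to 10.2 CPM in the other 9 libraries. These ratios were picked after their values were seen and were not tested.

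**Figure D5:**
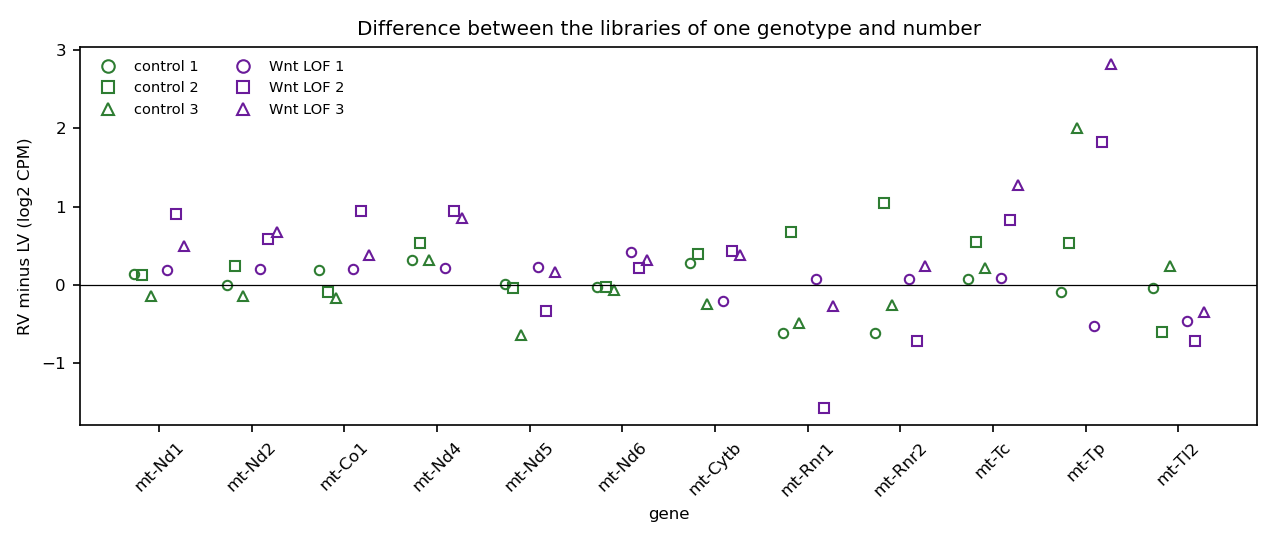
RV minus LV difference in log2 CPM between libraries of one genotype and number, for the 9 counted mRNAs and rRNAs and 3 tRNAs. mt-Nd4 and mt-Tc lie above 0 in 6 of 6 pairs, while mt-Rnr1 spans -1.57 to 0.68.

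Of 42 listed nuclear genes that make and process mitochondrial RNA (among them Polrmt, the polymerase, Tfam, which packages and activates the genome, and Lrpprc, which stabilises its mRNAs), 39 were tested and 0 were called, as for all 15494 genes (0% called). The median log2 fold change of the list was -0.01 in the LV and 0.04 in the RV for genotype, 0.05 for RV against LV in control and 0.04 in Wnt LOF. Over all genes the medians were -0.0038, 0.00072, 0.0039 and -0.00062 in the same order. The summed level of this list ran only from 1936 to 2138 CPM over the 12 libraries.

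Most nuclear subunits of the same respiratory complexes lay above 0 in RV against LV, without any call, as for all genes (0% called). In control hearts 36 of 36 subunits of complex I, 9 of 9 of complex III, 12 of 12 of complex IV and 16 of 18 of the ATP synthase had a log2 fold change above 0, against 51% of all genes, with medians of 0.23, 0.27, 0.41 and 0.25. The mitochondrial mRNAs had a median of 0.01 there. In Wnt LOF hearts the counts were 34 of 36, 9 of 9, 12 of 12 and 18 of 18, against 49.8% of all genes, with medians of 0.36, 0.32, 0.47 and 0.36, beside 0.51 for the mitochondrial mRNAs. An unadjusted p under 0.05 by edgeR was reached there by 15, 2, 5 and 8 of these subunits, against 4.81% of all genes. It was reached by 5 of the 20 mitochondrial genes. In control hearts the subunit counts were 0, 0, 1 and 0, against 4.89%. Whether the 2 sets of subunits differ from each other was not tested. The cardiomyocyte markers had medians of 0.03 in control and 0.16 in Wnt LOF for the same comparison, with 8 and 9 of 12 above 0. Markers of other cell types ran, as sums over the 12 libraries, from 1156 to 1548 CPM for endothelium, 2691 to 4231 CPM for fibroblasts, 289 to 369 CPM for macrophages, 80.4 to 314 CPM for erythroid cells and 26.4 to 98.2 CPM for atrial muscle. For RV against LV their medians in control and Wnt LOF were -0.16 and -0.01 for endothelium and -0.003 and 0.03 for fibroblasts. They were 0.09 and 0.17 for macrophages, 0.57 and 0.28 for erythroid cells and -0.09 and 0.66 for atrial muscle. In control 0 of 10 endothelial and 6 of 6 erythroid markers lay above 0, and in Wnt LOF 4 of 10 and 4 of 6. The highest erythroid sum was that of WntLOF RV 3, and the part of these cells in the mitochondrial values was not tested.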

How the data were processed

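The authors deposited raw counts per Ensembl gene for 12 libraries, per the file headers, and the submitters' processing notes name featureCounts, Subread and edgeR. Not given in the sources used here: the aligner, build, read length, strand setting and treatment of shared reads. The table has 41192 entries for 40594 genes. Its 598 repeats, with equal counts, were dropped. The authors' deposited comparison tables hold log2 fold changes and log2 levels, p-values and adjusted p-values, and scores such as a signed linear fold, per the file headers. They were read for mitochondrial genes.

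Groups came from the sample titles. Counts were fitted with edgeR 4.0.16 (limma 3.58.1, R 4.3.3) after filterByExpr and TMM, with 1 mean per group, robust quasi-likelihood dispersion and Benjamini-Hochberg adjustment over 15494 genes at 0.05. DESeq2 1.42.0, other size factors, library sizes without mitochondrial genes, no filter, the compared groups alone, a replicate block and leaving out libraries were alternatives, and the block without the libraries in doubt was added after seeing the data. Shares were compared with exact permutation tests. The edgeR fit with 1 mean per group was tried on simulated counts, for the 4 pairwise comparisons. The permutation test was checked against another implementation on made-up numbers. Shared sequence was counted as words of 50 bases.

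Same-numbered libraries were checked for pairing by the correlation of deviations from group means. Between the ventricles it was 0.411, 0.290 and 0.517 in control and 0.191, 0.197 and 0.594 in Wnt LOF. All were above 0.1, so the number was used as a block in an alternative fit and for pair differences. The main fit, DESeq2 and the 20 exact tests of shares did not use pairs. Unlike-numbered Wnt LOF libraries had 0.201 (LV 1 with RV 2) and 0.133 (LV 2 with RV 1), so pairs 1 and 2 of Wnt LOF do not stand out. This comes from the data, not the labels. Between genotypes the correlations ran from -0.090 to 0.306 for same-numbered libraries and from -0.237 to 0.321 for unlike-numbered ones. There the numbers were not taken as pairs.

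Levels are given for the mRNAs, rRNAs and the 6 highest tRNAs. Fold changes are given for mt-Rnr1, mt-Rnr2, mt-Nd6 and the highest and lowest mRNA of a comparison, and other named genes were chosen after their values were seen. The members and gene lists were chosen with earlier results of these data known.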

Additional observations from a re-analysis of the deposited data

How the results depend on the processing

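No mitochondrial gene was called in 23 of the 25 fits, and no value that changed sign below passed a test. Of 965 values recomputed under alternatives, 879 kept their direction and side of the threshold or, for counts and for mRNA medians, which have no test, moved little (medians by less than the spread between libraries, 0.41 log2). Of these medians 8 changed sign, 1 for Wnt LOF against control in the LV and 7 for RV against LV in control. Another 68 values changed sign, 13 were counts of called genes that moved and 5 were fold changes that passed the threshold only under an alternative. Counting depth limits the tRNAs, most of which had under 100 counts a library, and shared sequence limits mt-Co1, mt-Nd4 and the genes between them. For all changes the cause was not tested, beyond fewer libraries in the fits that leave some out.

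The genes called in RV against LV rose from 0 to 9 in control with the compared groups alone, to 2 in control and 2 in Wnt LOF without WntLOF LV 1, WntLOF RV 1 and control LV 2, and to 2 in Wnt LOF without WntLOF LV 1 and RV 1. With the replicate block 1 gene was called in RV against LV of Wnt LOF and 1 in the interaction, and mt-Nd5 in Wnt LOF had 0.0203. With all 12 libraries the block changed no other call. In fits added after seeing the data, the replicate block without WntLOF LV 1 and RV 1 called 297 genes, 7 of them mitochondrial, in RV against LV of Wnt LOF and 1 gene in the interaction. Without control LV 2 as well it called 177 genes, 6 of them mitochondrial, in Wnt LOF and 27 in control, where mt-Rnr2 had -0.438, and mt-Rnr2 in the interaction had 0.2034.

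Without control LV 2, Wnt LOF against control in the LV gave -0.16 for mt-Nd5, -0.0874 for mt-Rnr2 and -0.0327 points for the rRNA share, and RV against LV in control gave -0.0036 for mt-Rnr2 and -0.0197 points for the rRNA share. mt-Nd6 in the LV was 0.20 without WntLOF LV 1 and RV 1 and 0.0788 without all 3, where mt-Rnr2 in control RV against LV was -0.0015.

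Leaving out 1 library at a time, the ranges that crossed 0 were as follows. For Wnt LOF against control in the LV they were -0.26 to 0.69 for mt-Nd5, -0.28 to 0.22 for the mRNA median, -0.28 to 0.23 for mt-Nd6, -0.14 to 0.17 for mt-Rnr2, -1.07 to 0.163 points for the mRNA share, -0.0574 to 0.137 for the rRNA share, -0.00185 to 0.000254 for the tRNA share and -0.0124 to 0.227 for mt-Nd6 as a percent of mRNA. In the RV they were -0.19 to 0.35 for mt-Nd4, -0.45 to 0.24 for mt-Rnr1, -0.57 to 0.31 for mt-Rnr2, -0.309 to 0.162 points for the rRNA share, -0.000453 to 0.00426 for the tRNA share, -5.48 to 1.20 for rRNA as a percent of mitochondrial counts and -0.0152 to 0.0742 for mt-Nd6 as a percent of mRNA. For RV against LV in control they were -0.63 to 0.29 for mt-Nd5, -0.19 to 0.33 for the mRNA median, -0.30 to 0.22 for mt-Nd6, -0.43 to 0.17 for mt-Rnr1, -0.31 to 0.33 for mt-Rnr2, -0.593 to 0.637 points for the mRNA share, -0.185 to 0.209 for the rRNA share, -3.31 to 3.29 for rRNA as a percent of mitochondrial counts and -0.0804 to 0.00331 for mt-Nd6 as a percent of mRNA. In Wnt LOF they were -0.37 to 0.29 for mt-Nd5, -0.49 to 0.23 for mt-Rnr2, -0.296 to 0.104 points for the rRNA share and -0.233 to 0.00623 for mt-Nd6 as a percent of mRNA, and 0 to 1 genes were called. In the interaction they were -0.25 to 0.40 for mt-Cytb and -0.62 to 0.26 for mt-Rnr2.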
